A study of Ascaris suum with 10 samples.

Results

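The adult intestine and the adult body wall of the pig roundworm Ascaris suum were compared by polyadenylated RNA sequencing, across all 15446 genes of the deposited table and with no gene set aside. The comparison uses 2 of the series' 10 libraries, 1 of intestine and 1 of muscle dissected with the hypodermis. Both came from adults of a wild North American population, with no treatment. Neither the sex nor the number of worms is given in the labels for these libraries. The other columns served for reference. They are the germinal zones of testis and ovary, a carcass of each sex (muscle and hypodermis together with pharynx and neurons), second-stage larvae of day 7, and a single embryo column standing for 3 libraries of embryos incubated for 24, 46 and 64 hr. Each tissue was sequenced once, so replicate error is unknown, no test could be made and no p-value is given. Every difference is between these libraries, not between animals.

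The nematode intestine is a tube made of a single layer of epithelial cells. It digests and absorbs food, stores fat and, in the hermaphrodites and females of several species, makes yolk proteins for the oocytes. The body-wall muscle of Ascaris consists of large obliquely striated cells that work largely without oxygen, and the hypodermis beneath the cuticle is the syncytial layer that secretes it. The table pairs its identifiers (ASG numbers) with no gene names, so no role can be given to a gene, and markers of either tissue were not looked up. The labels were checked instead against the carcasses, which share muscle and hypodermis with the muscle library. Across genes, Spearman's rho with muscle was 0.85 for male carcass and 0.86 for female carcass, against 0.60 for intestine. Intestine stood at 0.68 and 0.63 with the same carcasses. These are descriptions across genes, which are not independent.

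The values are RPKM, reads scaled to the length of the gene model and to the mapped reads of the library, rounded to 1 decimal. Read totals are unknown, so intervals and detection limits are left out, and a 0 in the table is reported as listed at 0. The column sums were close, 696947 RPKM in intestine and 702556 in muscle. Detection at 1 RPKM or more covered fewer genes in intestine (8616) than in muscle (9914). Both libraries detected 7388 genes, intestine alone 1228, muscle alone 2526 and neither 4304. In intestine 3603 genes were listed at 0, against 1960 in muscle. Because these are whole tissues, fewer cells of a type and less RNA per cell cannot be told apart.

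The tissues differed at 3309 genes (21.4%), and the muscle side was the larger. A difference was counted where log2((intestine RPKM + 1)/(muscle RPKM + 1)) was at least 2 in size, a 4-fold difference on a scale that understates low genes. By that rule 1371 genes were higher in intestine, 8.88% of the table, and 1938 were higher in muscle, 12.5%. They are called intestine-high and muscle-high below. The male and female carcasses, listed with the same tissues, differed at 5.98% of genes by the same rule. Where a gene reached 10 RPKM in at least one library of the pair, the median absolute log2 difference was 1.69 between intestine and muscle and 0.59 between the carcasses. The carcass pair is the only yardstick here for libraries of like tissue, and it also differs by sex.

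**Figure D1:**
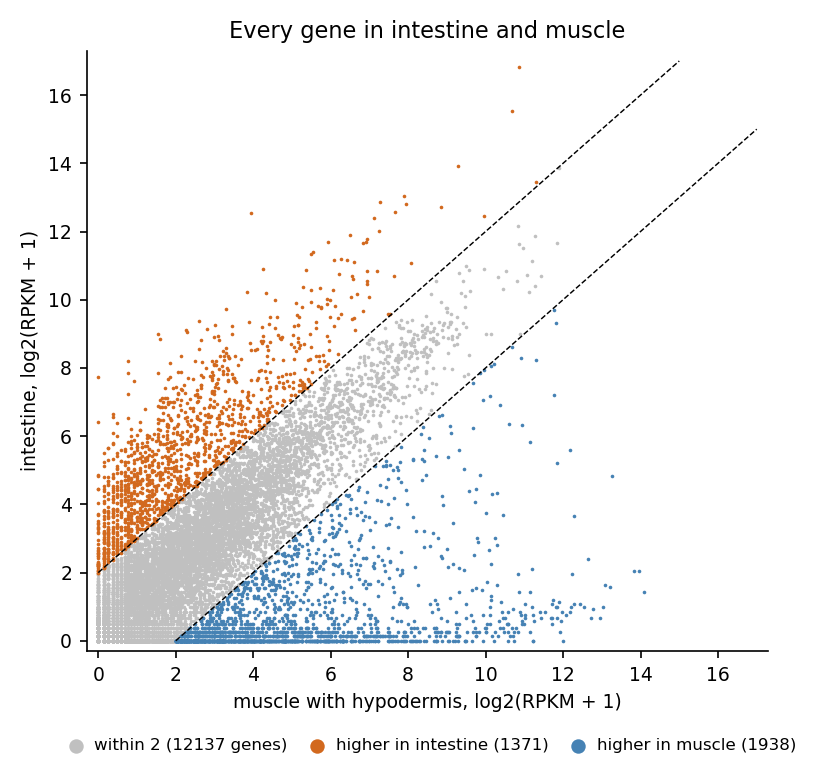
Each point is a gene, by its log2(RPKM + 1) in muscle with hypodermis (x axis) and in intestine (y axis), 1 library each, and the dashed lines mark a log2 difference of 2. The 1938 muscle-high genes crowd along the floor of the intestine axis, whereas most of the 1371 intestine-high genes lie away from the floor of the muscle axis.

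The sides differed in what remained of their genes in the other tissue. The median muscle-high gene stood at 22.4 RPKM in muscle and 0.2 in intestine, where 706 of them (36.4%) were listed at 0 and 491 (25.3%) reached 1 RPKM. For the intestine-high genes the medians were 35.4 RPKM in intestine and 2.4 in muscle, and in muscle 44 (3.21%) were listed at 0 and 945 (68.9%) reached 1 RPKM. Over all genes, 12.7% were listed at 0 in muscle and 64.2% reached 1 RPKM there, and in intestine 23.3% and 55.8% did. Detection of intestine-high genes in muscle was thus near that of the whole table, while muscle-high genes were less often at 1 RPKM in intestine than the table. The rule that chose the sides used these same columns, so the shares are descriptions.

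The asymmetry grew with the size of the difference. At a log2 difference of 3 or more there were 754 intestine-high and 1252 muscle-high genes, at 5 or more 112 and 550, and at 8 or more 1 and 166. For genes at or above 1000 RPKM in the leading tissue, 16 of 47 intestine-high genes were 5 or more apart, against 102 of 114 muscle-high genes. The median difference was 4.78 for these 47 and 10.12 for these 114, on the log2 scale. The median level in the other tissue was 96.5 RPKM in muscle for the former and 0.8 RPKM in intestine for the latter.

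**Figure D2:**
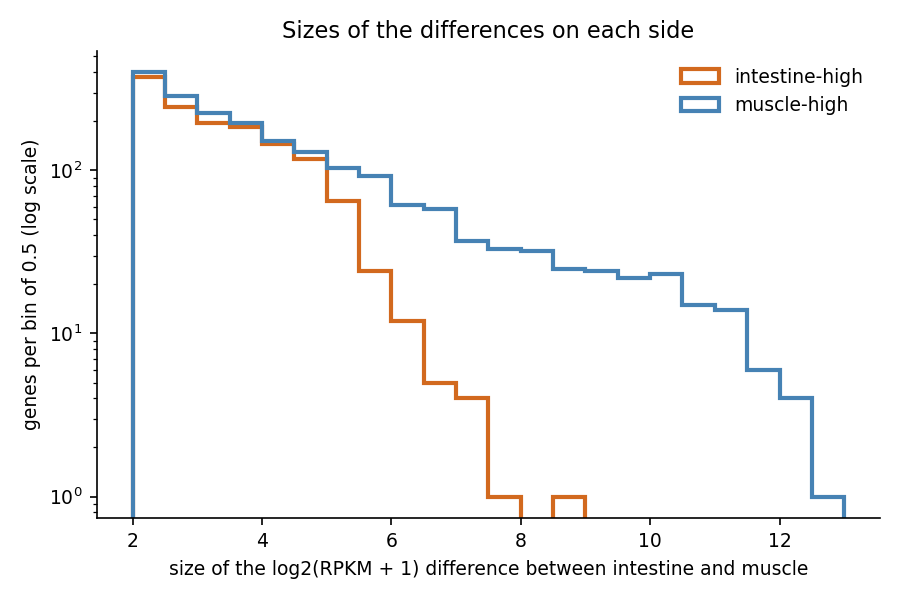
The number of genes (y axis, log scale) is plotted against the size of the log2(RPKM + 1) difference between intestine and muscle (x axis, bins of 0.5) for intestine-high and muscle-high genes. The outlines run together up to a difference of about 5 and part beyond it, where 112 intestine-high and 550 muscle-high genes lie.

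The level of the most abundant transcripts of each tissue in the other was also measured. Intestine-led genes were taken as those of 500 RPKM or more in intestine and at least 5 times every other column, and 36 genes met this. Their muscle level was 3.31% of the intestinal one at the median (quartiles 1.65% and 5.31%, lowest 0.38%, highest 8.36%), and none of the 36 was under 1 RPKM there. Body-wall-led genes were those of 500 RPKM or more in muscle and at least 5 times every column but the carcasses, and 155 genes met this. Their intestinal level was 0.029% of the muscle one at the median (quartiles 0.016% and 0.12%), and 93 of the 155 were under 1 RPKM there. With these medians subtracted, 3.31% of intestine from muscle and 0.029% of muscle from intestine, differences of 5 or more numbered 341 on the intestine side and 552 on the muscle side. Both fractions came from the columns compared, so a rise on the intestine side was built into the subtraction. Whether the intestinal transcripts in muscle come from tissue left on the preparation or from expression there was not tested.

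The genes with the largest ratios show both ends. The intestinal level of ASG05529 was 5945.6 RPKM against 14.3 in muscle, a log2 difference of 8.60, with 7869.3 RPKM for the male carcass, 80.9 for the female and at most 4.1 in the 4 remaining columns. Its level in muscle was thus lower, relative to intestine, than that of any of the 36 intestine-led genes. It is not one of them, because male carcass exceeded intestine. ASG10515 had 213.6 RPKM in intestine and 0 in both muscle and testis, with 149.4 RPKM in female carcass, 11 in male carcass, 6.3 in embryo, 5.3 in ovary and 2.7 in larva. ASG01479, the highest gene of muscle, stood at 17564.6 RPKM there, with 10308.4 and 23185.8 in the male and female carcass, against 1.7 in intestine, 2 in testis, 38.1 in ovary, 1 in embryo and 8.7 in larva. ASG05179 had 7864.4 RPKM in muscle, with 3847 and 12125.7 in the male and female carcass, against 0.6 in intestine, 0 in testis, 31.7 in ovary, 0.3 in embryo and 8.3 in larva. Both muscle genes were high in each of the 3 libraries that contain body wall, whereas each intestine gene was high in a single carcass.

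The RPKM of intestine was concentrated in fewer genes than that of muscle. The highest gene held 16.6% of the column sum in intestine and 2.50% in muscle, and the 10 highest held 34.6% and 15.1%. The highest 100 held 57.0% and 49.3%. Over the highest 1000 the shares met, at 85.1% and 85.0%. In intestine 51 genes made up 50% of the sum. It took 1587 genes in intestine and 1667 in muscle to reach 90%.

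A single gene made most of that difference. ASG15439 stood at 115894.5 RPKM in intestine, 2.44 times the second gene. It had 1861.3 RPKM in muscle, 3287.3 and 1298.2 in the male and female carcass, and was above 1 RPKM everywhere else, with 511.4 in ovary, 318.7 in embryo, 129.1 in testis and 35 in larva. With the highest gene of each column left out, 114 intestine genes and 110 muscle genes made up 50% of the remaining sum, and the 10 highest held 22.5% in intestine and 13.9% in muscle. Without the highest gene, then, the columns were close by the number of genes for 50%, while the 10 highest still held more in intestine.

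The second intestine gene, ASG15313, had another distribution. It had 47517.8 RPKM in intestine, 9696.1 in female carcass, 4237.4 in male carcass and 1632.7 in muscle, with 123.5 in ovary, 80.8 in testis, 13.4 in larva and 0.1 in embryo. The 8 genes after it ran from 15594.9 down to 6065 RPKM. In muscle the second gene, ASG05180, stood at 15877.4 RPKM, close behind ASG01479, and at 27279.6 and 30804.8 in the male and female carcass. It was at 3.1 RPKM in intestine, 72.4 in ovary, 57.2 in larva, 1.1 in testis and 0.1 in embryo. The 8 after it ran from 14548.2 to 6755.2 RPKM. There was thus no muscle gene that stood apart as ASG15439 did in intestine.

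**Figure D3:**
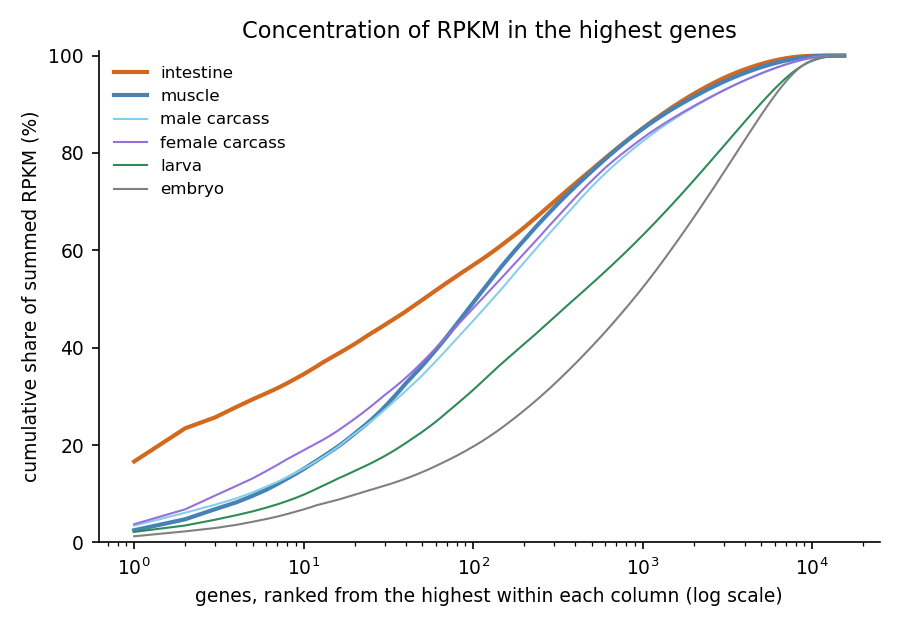
The cumulative share of summed RPKM (y axis) is plotted against gene rank within each column (x axis, log scale) for intestine, muscle, both carcasses, larva and the embryo column. Intestine starts at 16.6% with its highest gene against 2.50% in muscle, and the curves meet near the 1000th gene at about 85%.

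The highest genes of the tissues were largely different genes. None of the 10 highest was shared, 18 of the 100 highest (18% of each list) and 443 of the 1000 highest (44.3%). The carcasses shared 4, 70 and 803. Of the 10 highest intestine genes, 9 were intestine-high, and the remaining one missed the threshold at a log2 difference of 1.96. All 10 of the highest muscle genes were muscle-high. Those 10 muscle genes held 16.9% of the female carcass sum, 11.96% of the male carcass sum and 0.006% of the intestine sum. The 10 intestine genes held 3.17% of the male carcass sum, 2.78% of the female carcass sum and 1.67% of the muscle sum.

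Tissue-high genes held most of the summed RPKM of each tissue, in the same columns that chose them. Intestine-high genes made up 61.5% of the intestine sum and 2.99% of the muscle sum. Muscle-high genes made up 68.3% of the muscle sum and 1.19% of the intestine sum. A shared core was counted as the 2265 genes of 5 RPKM or more in both tissues and less than 1 apart on the log2 scale. It held 21.9% of the intestine sum and 19.4% of the muscle sum.

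Whether genes of each tissue were already present in early embryos and larvae was the next question. The embryos are at the first cleavages, long before either tissue exists, whereas second-stage larvae possess both. Of the intestine-high genes, 868 (63.3%) stood at 1 RPKM or more in embryo and larva, 122 (8.90%) in embryo alone, 165 (12.03%) in larva alone and 216 (15.8%) in neither. Of the muscle-high genes, 1266 (65.3%) did so in both, 143 (7.38%) in embryo alone, 273 (14.1%) in larva alone and 256 (13.2%) in neither. Most genes of either side were therefore present before the adult, and the sides had similar shares. The same shares over the whole table were 71.6% in both, 7.46% in embryo alone, 9.59% in larva alone and 11.3% in neither. The number found in neither moves with the detection level, being 131 and 144 at 0.5 RPKM and 550 and 669 at 5 RPKM.

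The shared core was almost wholly present early. Of its 2265 genes, 98.0% stood at 1 RPKM or more in both embryo and larva and 0.71% in neither. Among all 5489 genes of 5 RPKM or more in intestine, 4.34% were in neither, and among the 5851 such genes of muscle, 4.51%. The intestine-high and muscle-high genes, at 15.8% and 13.2%, thus had larger shares under 1 RPKM in both early columns than these wider sets, which contain most of them.

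Presence hides how little of the adult level was reached. The median intestine-high gene stood in embryo at 10.3% of its intestinal level and in larva at 12.5%. Muscle-high genes stood at 17.6% of their muscle level in embryo and 21.4% in larva. Both medians were lower for genes more abundant in the adult. For genes under 10 RPKM in the leading tissue, the larva median was 26.6% for intestine-high and 54.2% for muscle-high genes. For genes of 1000 RPKM or more it was 0.12% for the 47 intestine-high and 0.65% for the 114 muscle-high genes, and the embryo medians there were 0.12% and 0.29%. A high level in the denominator lowers such a percentage by itself, so these are descriptions. Of the 47 intestine-high genes, 36 were under 1% of their adult level in both early columns, and of the 114 muscle-high genes 56 were.

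**Figure D4:**
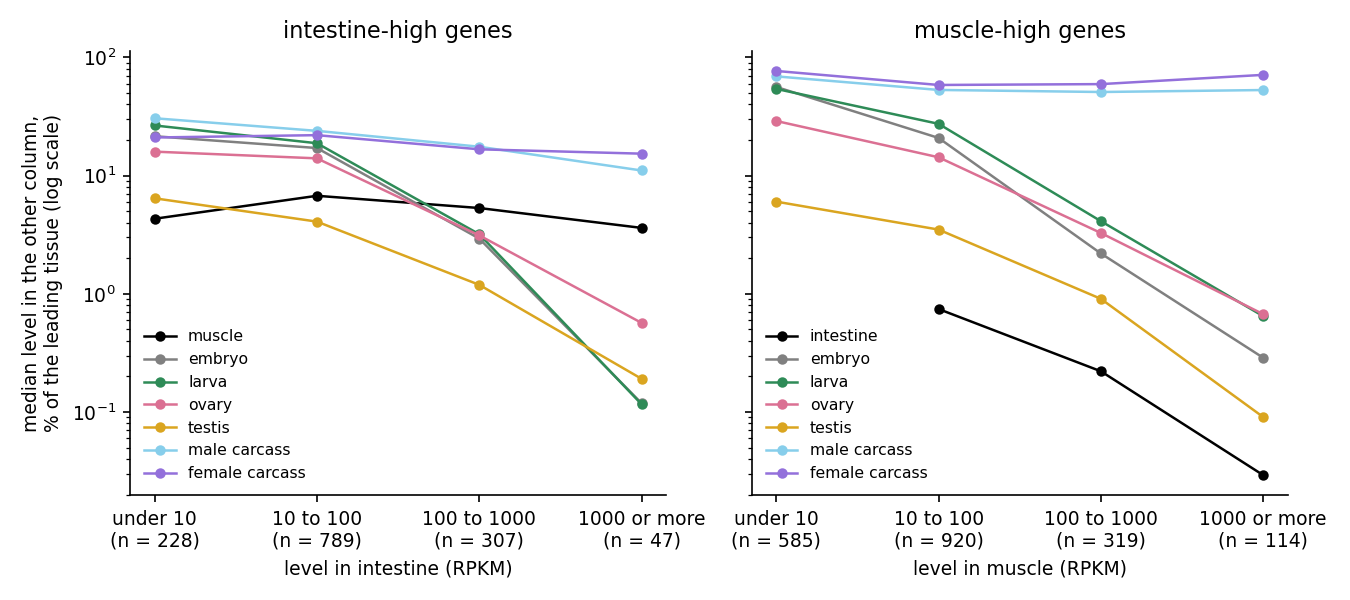
The median level of intestine-high genes (left) and muscle-high genes (right) in each other column, as a percentage of the leading tissue (y axis, log scale), is plotted against the level in the leading tissue (x axis, RPKM classes with their number of genes). The carcasses keep 51.0% to 76.8% of muscle-high levels but 11.1% to 30.6% of intestine-high levels, embryo, larva and gonads drop below 1% for the most abundant genes, and the point for intestine under 10 RPKM on the right is absent because that median was 0.

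The most abundant muscle genes were detected in larva more widely than in embryo. Of the 114 muscle-high genes of 1000 RPKM or more, 112 (98.2%) reached 1 RPKM in larva and 78 (68.4%) in embryo, and 1 was in neither. Of the 47 intestine-high genes of that level, 39 (83.0%) reached 1 RPKM in larva and 28 (59.6%) in embryo, and 8 (17.0%) were in neither. Over all genes 81.2% reached 1 RPKM in larva, 79.1% in embryo and 11.3% were in neither. The larva share of the abundant muscle genes was thus above that of the table, and that of the abundant intestine genes was near it. Both embryo shares were below that of the table. Among all genes of 1000 RPKM or more, tissue-high or not, the larva shares were 98.5% in muscle and 88.9% in intestine. The embryo shares there were 72.6% and 73.6%. These 135 and 72 genes include the 114 and the 47, so their shares are not independent.

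Larva and embryo were also set against each other by the same size rule, since neither column had been used to choose the genes. Larva was higher than embryo at 322 muscle-high genes (16.6%) and at 172 intestine-high genes (12.5%), against 8.81% of the whole table. Embryo was higher than larva at 258 muscle-high genes (13.3%) and 115 intestine-high genes (8.39%), against 11.7% of the table. On both sides larva-higher genes were more frequent than in the table. Embryo-higher genes were slightly more frequent than in the table among muscle-high genes and less frequent among intestine-high genes. Among the 114 most abundant muscle-high genes the larva-higher count was 41 (36.0%), and among the 47 most abundant intestine-high genes it was 8 (17.0%). Among all genes of 1000 RPKM or more, tissue-high or not, the shares were near these, at 34.1% in muscle and 15.3% in intestine. Those wider sets, of 135 and 72 genes, include the 114 and the 47.

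Smaller classes separate genes by when they appear. A larva level of 5 RPKM or more with embryo under 1 RPKM was found for 122 muscle-high genes (6.30%) and 52 intestine-high genes (3.79%), against 3.68% of all genes. The 122 held 10.8% of the muscle sum and included the second gene, ASG05180. The 52 held 9.07% of the intestine sum, most of it from ASG15313 alone, which made up 6.82%. The reverse, 5 RPKM or more in embryo and under 1 in larva, was found for 30 muscle-high genes (1.55%) and 32 intestine-high genes (2.33%). Against the 2.34% of all genes, the muscle share was lower and the intestine share about equal.

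Genes found in adult soma but under 1 RPKM in embryo, larva and both gonads numbered 152 on the intestine side (11.1%) and 188 on the muscle side (9.70%), against 7.13% of all genes. Among all genes of 5 RPKM or more in intestine the share was 2.95%, and among those of muscle 2.91%. The 152 and 188 genes were weakly expressed, with a median of 16 RPKM (intestine side) and 9.3 RPKM (muscle side) in their tissue. They held 0.90% and 1.00% of the tissue sums. Their highest levels were 378.9 RPKM in intestine and 604.5 in muscle. ASG14640 had 149.5 RPKM in intestine and 0.7 in muscle, with 95.1 in the male and 211.9 in the female carcass. ASG01541 had 231.3 RPKM in intestine and 1.9 in muscle, with only 5.6 and 14.3 in the male and female carcass. The first was thus also high in both carcasses, whereas the second was largely an intestine gene. ASG06296 had 604.5 RPKM in muscle and 0.2 in intestine, with 162.1 and 173.3 in the male and female carcass. ASG12743 had 459.8 RPKM in muscle and 0.2 in intestine, with 141.6 and 107.1 in the male and female carcass. Both muscle genes were several-fold lower in the carcasses than in muscle.

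At the other end were tissue-high genes that stood at 5 RPKM or more in embryo, larva and both gonads. There were 258 on the intestine side (18.8%) and 296 on the muscle side (15.3%), against 29.0% of all genes and 78.9% of the shared core. They held 26.9% of the intestine sum, of which ASG15439 made up 16.6%, and 19.4% of the muscle sum. The level of ASG06066 was 1923.1 RPKM for intestine and 18.1 for muscle, with 190.9 in larva, 37.9 in embryo, 24.2 in testis, 22.9 in ovary, 123.1 in male carcass and 249.6 in female carcass. ASG15406 stood at 8442 RPKM in muscle and 1 in intestine, with 112.5 in larva, 7.3 in embryo, 13.6 in testis, 42.9 in ovary and 4118.2 and 5052.1 in the male and female carcass. ASG08853 stood at 3875.7 RPKM in muscle and 0.2 in intestine, with 80.7 in larva, 15.4 in embryo, 23.6 in testis, 41.1 in ovary and 1769.9 and 2677.6 in the male and female carcass. For both muscle genes, intestine was the lowest of all columns, below the gonads and the embryo. Their class required 5 RPKM or more in those columns and their ratio a low intestinal level, so this order was largely set by the choice.

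The gonads were read at 5 RPKM or more. Of the intestine-high genes, 359 (26.2%) reached that level in testis and ovary, 66 (4.81%) in testis alone, 280 (20.4%) in ovary alone and 666 (48.6%) in neither. Of the muscle-high genes, 383 (19.8%) reached it in both, 83 (4.28%) in testis alone, 518 (26.7%) in ovary alone and 954 (49.2%) in neither. Over all genes, 34.5% reached it in both, 8.20% in testis alone, 21.99% in ovary alone and 35.3% in neither. About equal shares of the sides were thus shared with a gonad, 51.4% and 50.8%, both below the 64.7% of all genes and the 95.6% of the shared core. In testis, 425 intestine-high genes (31%) and 466 muscle-high genes (24.0%) reached 5 RPKM, against 42.7% of all genes.

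**Figure D5:**
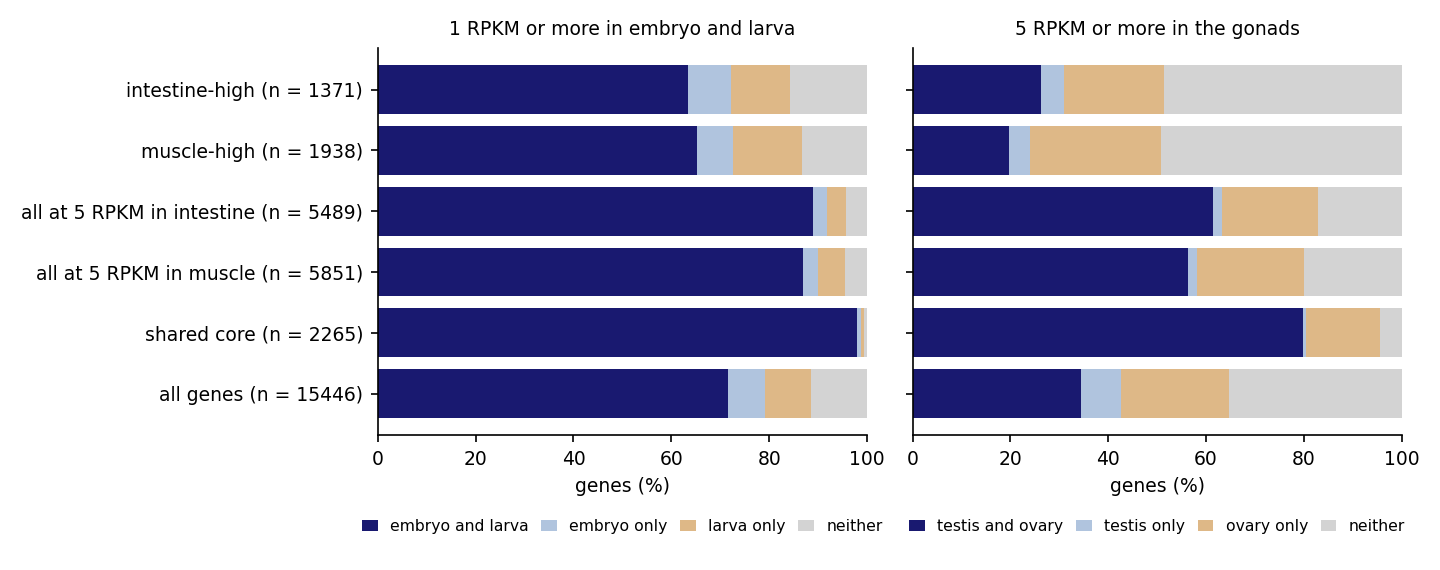
Stacked bars give the percentage of genes (x axis) at 1 RPKM or more in embryo and larva (left) and at 5 RPKM or more in testis and ovary (right) for intestine-high and muscle-high genes, all genes of 5 RPKM or more in each tissue, the shared core and the whole table. Genes in neither early column make up 15.8% and 13.2% of the tissue-high sets and 0.71% of the shared core, and genes in neither gonad make up 48.6%, 49.2% and 4.42%.

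The gonads differed in how they shared with each side. Ovary was higher than testis by the size rule at 586 muscle-high genes (30.2%) and at 242 intestine-high genes (17.7%), against 19.9% of all genes. Testis was higher than ovary at 73 muscle-high genes (3.77%) and 126 intestine-high genes (9.19%), against 10.4% of all genes. Among all genes of 5 RPKM or more in muscle, ovary was higher at 25.9% and testis at 2.12%. Among such genes of intestine, the shares were 22.4% and 3.13%. The ovary share of muscle-high genes was thus above both bases, though less so against genes of muscle. For intestine-high genes the ovary share was below both bases. Their testis share was slightly below the table but above that of intestine genes. The correlations across genes separated the tissues by testis more than by ovary. Spearman's rho with testis was 0.43 for intestine and 0.27 for muscle, and with ovary 0.56 and 0.55.

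Abundant genes of both sides were mostly at 5 RPKM or more in ovary, though at a low relative level. Of the 114 muscle-high genes of 1000 RPKM or more, 86.0% reached 5 RPKM in ovary. Of the 47 intestine-high genes 83.0% did, against 56.5% of all genes. Among all genes of 1000 RPKM or more, tissue-high or not, 88.1% did in muscle and 88.9% in intestine. These 135 and 72 genes include the 114 and the 47, so the comparison could hardly tell a side from its level. The ovary medians of the 114 and the 47 were 0.67% of the muscle level and 0.57% of the intestinal level. In ovary, 9 of the 114 and 1 of the 47 reached 10% of the tissue level. The 155 body-wall-led genes stood at a median of 0.68% in ovary, with 6 genes under 1 RPKM, against 0.081% in testis, with 73 genes under 1 RPKM. For the 36 intestine-led genes the medians were 0.51% in ovary, with 1 gene under 1 RPKM, and 0.21% in testis, with 5. Low percentages are fixed by the rule for led genes, and over the whole table too more genes reached 1 RPKM in ovary (12211) than in testis (10285). The part of such traces in the ovary counts was not tested. A relative limit, 10% or more of the tissue level in ovary, was met by 673 intestine-high genes (49.1%) and 1033 muscle-high genes (53.3%), and in testis by 459 (33.5%) and 607 (31.3%).

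A difference between intestine and muscle did not mean that the tissue was the gene's main site. Intestine was the highest of the 8 columns for 900 intestine-high genes (65.6%), and muscle, ties included, for 857 muscle-high genes (44.2%). An early stage or a gonad exceeded the tissue for 397 intestine-high genes (29.0%) and 696 muscle-high genes (35.9%). For the muscle-high genes embryo was the highest column for 222, larva for 196, ovary for 157 and testis for 61. For the intestine-high genes larva was for 133, testis for 110, embryo for 105 and ovary for 38. These genes lie on a side because the opposite adult tissue was lower, not because the tissue itself was the highest. A difference of 2 or more from each of testis, ovary, embryo, larva and the other tissue was found for 596 intestine-high genes (43.5%) and 658 muscle-high genes (34.0%).

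The carcasses separated the sides further. Muscle-high genes stood at medians of 56.1% of their muscle level in male carcass and 64.2% in female carcass, and 69.8% of them reached 5 RPKM in both. Intestine-high genes stood at 22.9% and 20.5% of their intestinal level, and 54.9% reached 5 RPKM in both, although the labels name no intestine among the carcass tissues. Over all genes 40.5% reached 5 RPKM in both carcasses. Among genes of 5 RPKM or more in intestine 78.4% did, and among those of muscle 87.1%. Each side was thus above the table and below the wider set of its tissue. Of the 354 intestine-high genes of 100 RPKM or more, 1 was under 1 RPKM in both carcasses, against 18.5% of all genes. Male carcass was higher than female carcass by the size rule at 134 intestine-high genes (9.77%) and 84 muscle-high genes (4.33%), against 3.59% of all genes. Female carcass was higher at 44 intestine-high genes (3.21%) and 119 muscle-high genes (6.14%), against 2.4% of all genes. The counts past the threshold thus tilted to male among intestine-high genes and to female among muscle-high genes. Among all genes of 5 RPKM or more in intestine, male carcass was higher at 4.26% and female carcass at 1.17%. Among such genes of muscle the shares were 3.33% and 2.31%. A tilt to male was therefore not particular to the intestine-high genes. The median log2 difference, male minus female, was small, at 0.09 for intestine-high and -0.15 for muscle-high genes. For the 354 intestine-high genes of 100 RPKM or more it was -0.07, though their counts still tilted to male (11.6% against 4.80%). ASG05529, at 7869.3 and 80.9 RPKM, is on the male side.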

How the data were processed

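Per the labels' protocols, libraries were made from fragmented poly(A)-selected RNA by random priming and PCR, for Illumina sequencing. The authors deposited 1 table of RPKM values for 15446 genes in 8 columns. The submitters' processing notes name TopHat and Cufflinks. Their versions, the build, annotation, strand setting, gene lengths and depth are not given in the sources used, and how the embryo column was made from 3 libraries is not stated. Columns were matched to samples by title, and 0 columns had no sample. No depth or whole reads could be recovered.

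Differences were counted on log2(RPKM + 1) with a threshold of 2, with no filter, in Python 3.11.15 (pandas 2.3.3, numpy 2.4.6), and the rule was tested on simulated data. With 1 library per tissue no model was fitted. Detection was 1 RPKM, and the gonad level was 5 RPKM. Named identifiers are the 2 largest ratios per direction where the higher library had at least 10 RPKM, over all genes and within the classes low or high in embryo, larva and gonads, plus the 2 highest genes per column. The comparison, rules and thresholds were chosen with earlier results of these data known. Gene lists and markers could be matched to no identifier. Alternatives were other pseudocounts, thresholds and levels, a filter, rescalings of the columns and a subtraction of the medians of the led genes. That subtraction is called carry-over below as a name only, since the source of those transcripts was not tested.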

Additional observations from a re-analysis of the deposited data

How the results depend on the processing

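No paired analysis was possible because each tissue has 1 library. Without replicates, a count or a top-10 share was taken as moved beyond 1.5 times, and the split of sides (41.4% higher in intestine) beyond 10 percentage points. Of 62 alternative values, 41 did not move. The counts of intestine-high and muscle-high genes were 2214 and 3487 with a pseudocount of 0.1, 810 and 1037 with 5, 3044 and 3354 at a log2 difference of 1, and 754 and 1252 at 3. Under every alternative run, more genes were higher in muscle. The share higher in intestine was 38.8% and 43.9% with those pseudocounts, 47.6% and 37.6% at those thresholds, 43.4% among genes of 5 RPKM or more, 34.8% with upper-quartile scaling, 38.4% with scaling by the median of ratios, 48.2% with an equal sum outside the 10 highest genes of either column and 44.4% after the subtraction of carry-over (1540 and 1927 genes). The 10 highest intestine genes held 22.5% without the highest. Tissue-high genes under the detection level in both embryo and larva numbered 131 (intestine) and 144 (muscle) at 0.5 RPKM, 550 and 669 at 5 RPKM, and 380 and 507 with scaling by the median of ratios. The muscle count was 151 at a log2 difference of 3. Genes at the gonad level numbered 2058 (intestine) and 1899 (muscle) at a difference of 1 and 317 and 627 at 3, and 1505 for muscle at a gonad level of 1 RPKM. Stricter or looser levels change these counts by construction. Rescaling also changed the values in embryo, larva and gonads while the levels stayed fixed, which moves such counts by construction. Any further cause of the shifts with rescaling was not tested. Added after seeing the data, under 1% of the tissue level in both early columns gave 166 and 197 genes, and 10% of it in a gonad gave 730 and 1111. The 12 identifiers named by ratio kept their direction in all 96 recomputed values.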

Other observations

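Genes of like tissue pattern often carried consecutive identifiers. Of the 1371 intestine-high genes, the next number in the table was also intestine-high for 330 (24.1%), against 8.88% of all genes, and muscle-high for 8.68%. Of the 1938 muscle-high genes, the next number was also muscle-high for 503 (26.0%), against 12.5% of all genes, and intestine-high for 6.76%. Among genes of 100 RPKM or more the shares were 8.47% against 2.29% for intestine-high and 13.4% against 2.80% for muscle-high. At 10 numbers further on the shares were back at those of the table, 8.85% and 12.6%. The sources used here do not say whether the numbers follow the genome, and nothing is drawn from this pattern. Among the 10 highest muscle genes, ASG05179, ASG05180 and ASG05181 carry 3 consecutive numbers, and among the 10 highest intestine genes ASG12710 and ASG12711 do. Those identifiers beyond the naming rule were chosen after their values were seen.

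ASG12710 and ASG12711 also had a different distribution from the other highest intestine genes. They stood at 14785.7 and 11120.4 RPKM in intestine, 3789.8 and 2529 in muscle, 2200.1 and 1111.4 in larva and 698 and 354.2 in ovary, with 2484.2 and 1845 in male carcass but 419 and 297.9 in female carcass. Their muscle levels were 25.6% and 22.7% of the intestinal ones, against 1.61% to 6.75% for the 8 others of the 10 highest. The fourth muscle gene, ASG00091, was also unlike its neighbours in rank, at 9850.3 RPKM in muscle and 27.2 in intestine, with 2304.8 in testis, 2540.6 in ovary and 1233.6 in larva but 3.2 in embryo.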
